A study of Homo sapiens with 6 samples.

Results

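ESRG, LINC00678, LINC-ROR and LINC00458 are 4 long noncoding RNAs (lncRNAs) of human pluripotent stem cells, and they were followed here through RNA-seq of endoderm cells in which another lncRNA, GATA6-AS1, had been knocked down. They were taken by name from a table of 58830 genes, in which 2597 named rows are annotated as lncRNA, and all 4 were present. Their levels in these same libraries led to their choice, so the comparison of their levels between the groups is a description and carries no test. All cells were HuES8, a human embryonic stem cell line, grown for 3 days with 100 ng/mL Activin A, with 2.5 µM CHIR added at day 1 alone and Activin A without it for the next 2 days. The medium is given with 0.2% BSA for both groups. The KD group was 3 libraries titled as GATA6-AS1 knockdown (the source label of KD replicate 3 writes the name as GATA6-AS14), and the DE group was 3 libraries of wildtype cells put through the same differentiation. How the knockdown was done, whether DE cells carried a control construct and whether the 3 libraries of a group came from separate cultures is stated in none of the labels, so the spread between libraries may be technical.

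A large class of lncRNAs in human pluripotent cells is transcribed from copies of the endogenous retrovirus HERV-H, whose long terminal repeat, LTR7, acts as a promoter bound by POU5F1, NANOG and SOX2. ESRG, whose name stands for embryonic stem cell related gene, is among the most abundant of them, and LINC-ROR, the regulator of reprogramming, was found through its rise in induced pluripotent cells and has been described as a sponge for miR-145. LINC00458, also called HBL1, has been described as a brake on cardiac differentiation of human pluripotent cells, and less is known of LINC00678. As stem cells leave pluripotency, HERV-H transcription is normally shut down.

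In GENCODE release 29 on GRCh38 the 4 genes lie on different chromosomes, all on the minus strand: ESRG at chr3:54632122-54639857, LINC00678 at chr11:27617626-27634627, LINC-ROR at chr18:57054558-57072119 and LINC00458 at chr13:54115783-54132866. What they share is the start of their RNAs. ESRG aligned to LINC-ROR with 95.3% identity over 215 bases, to LINC00458 with 94.6% over 260 and to LINC00678 with 93.3% over 254. The other pairs aligned with 89.7% to 91.4% identity over 214 to 255 bases. By this measure LINC-ROR was the closest to ESRG and LINC00678 the farthest.

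The first exons differ in where they end. LINC00678, LINC-ROR and LINC00458 have first exons of 297, 216 and 254 bases in the transcripts compared, and their alignments with ESRG ended at bases 298, 215 and 261, near that exon end in each. The first exon of ESRG runs on to base 2167. ESRG picks up the likeness again at the far end of its long first exon. Bases 1999 to 2164 of ESRG aligned to bases 217 to 388 of LINC-ROR, the opening of that gene's second exon, with 86.6% identity over 172 bases. In LINC00458, a second transcript form aligned to bases 1998 to 2164 of ESRG with 84.7% identity over 177 bases. No such second stretch of 100 bases or more was found in LINC00678. The annotated ESRG RNA thus keeps, as exon, the bases that lie between its 2 shared stretches, where LINC-ROR joins the corresponding stretches directly.

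**Figure D1:**
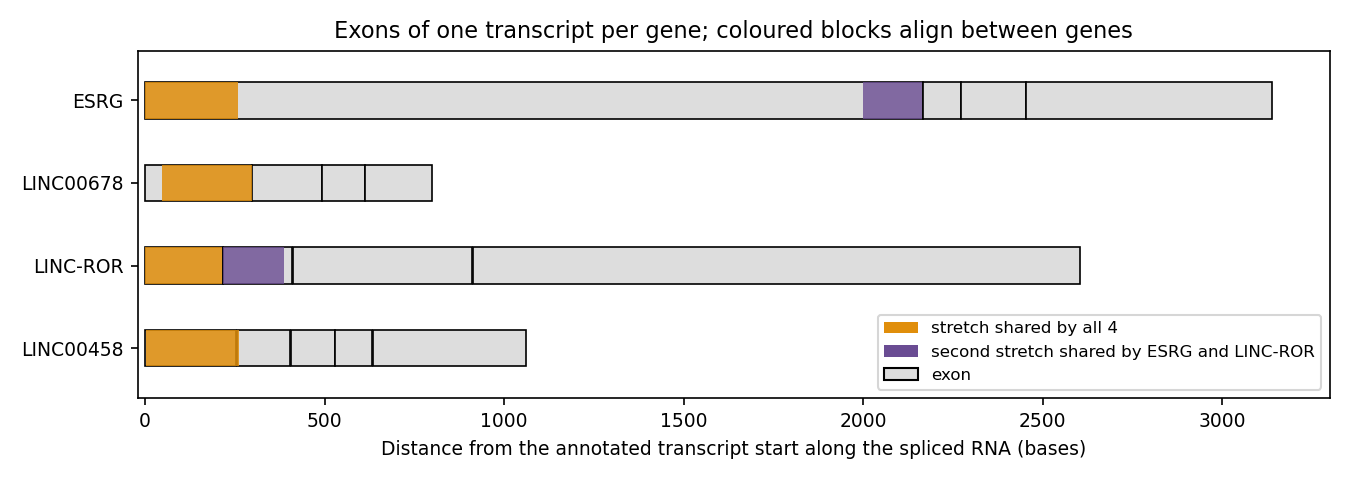
Exons of 1 annotated transcript per gene (boxes), drawn along the spliced RNA in bases from its start, with the stretch that aligns to ESRG (for ESRG itself, to the other 3) in orange and the second stretch shared by ESRG and LINC-ROR in purple. The orange stretch fills most or all of the first exon in LINC00678, LINC-ROR and LINC00458, but about the first 260 of 2167 bases in ESRG.

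The labelled knockdown was visible in its target. GATA6-AS1 had 180, 163 and 126 TPM in the KD libraries, against 388, 421 and 313 TPM in the DE libraries (TPM, a level scaled by gene length and library total), a log2 change of -1.26 with an adjusted p of 0.0128 in limma over all 17711 genes tested; without KD replicate 2 or DE replicate 1 it no longer passed. GATA6 itself averaged 218 ± 30.6 TPM in KD cells and 346 ± 52.8 TPM in DE cells (SD, n = 3 each; limma adjusted p = 0.0648, and 0.00500 with the replicate number as a block). Over all genes, 3.27% passed at an adjusted p under 0.05, 1.77% (314) higher and 1.5% (265) lower in KD. With the replicate number as a block, 12.5% passed, 5.88% higher and 6.62% lower. Depth, estimated from the steps between low TPM values, was 18640684 to 24510479 reads a library. It counts only the 37138 rows that could be matched to 1 annotated gene. Mitochondrial RNA made up 28.3%, 28.8% and 36.2% of TPM in KD libraries and 28.5%, 24.6% and 38.0% in DE libraries.

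ESRG had the highest mean of the 4 in KD cells, though LINC00458 was above it in KD replicate 1. It had 460, 476 and 504 TPM in the KD libraries, from an estimated 8141 to 12788 reads, against 137, 125 and 128 TPM in the DE libraries, from 2512 to 3072 reads. Every KD library lay far above every DE library, and the libraries within a group stayed close. The means were 480 ± 22.3 TPM in KD cells and 130 ± 6.33 TPM in DE cells (SD, n = 3 each), a ratio of 3.70 and a log2 change of 1.88 on the log2(TPM + 1) scale (standard error 0.0848). Since these are bulk samples, more cells that hold the RNA and more RNA per cell cannot be told apart.

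LINC00678 showed the steepest difference. It had 134, 141 and 122 TPM in the KD libraries (883 to 1148 reads), against 22.8, 24.2 and 21.5 TPM in the DE libraries (162 to 190 reads). The groups were far apart, and the lowest KD library was KD replicate 3. The means were 132 ± 9.58 TPM in KD cells and 22.8 ± 1.34 TPM in DE cells, a ratio of 5.79 and a log2 change of 2.48 (standard error 0.0990). Among the 582 named lncRNA rows tested, LINC00678 had the highest log2 change and ESRG the second highest.

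LINC-ROR was the rarest of the 4 in both groups and differed by less. It had 9.33, 11.0 and 9.03 TPM in the KD libraries (205 to 284 reads), against 6.39, 6.58 and 6.54 TPM in the DE libraries (164 to 178 reads). All KD libraries were above all DE libraries, and KD replicate 2 was the highest. The means were 9.78 ± 1.04 TPM in KD cells and 6.51 ± 0.102 TPM in DE cells, a ratio of 1.50 and a log2 change of 0.52 (standard error 0.120), which placed it 52nd from the highest among the 582 lncRNA rows.

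LINC00458 went the other way. It had 493, 390 and 403 TPM in the KD libraries (6214 to 7956 reads), against 597, 518 and 514 TPM in the DE libraries (8115 to 10432 reads). The groups did not overlap, but the highest KD library, replicate 1, came near the lowest DE library, and replicate 1 was the highest of its group in both. The means were 429 ± 55.8 TPM in KD cells and 543 ± 46.6 TPM in DE cells, a ratio of 0.790 and a log2 change of -0.34 (standard error 0.119). It stood 101st from the lowest among the 582 lncRNA rows.

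The libraries of the 2 groups did not overlap for any of the 4 RNAs, 3 of them above DE and 1 below. This was so for 20.8% of the 17707 tested genes with a unique name, the 4 included. Because the 4 were chosen on this contrast, nothing is read from their count. The direction of each held under the 12 alternatives tried, with log2 changes of 1.83 to 1.92 for ESRG, 2.44 to 2.54 for LINC00678, 0.44 to 0.58 for LINC-ROR and -0.45 to -0.27 for LINC00458; these included TPM recomputed without mitochondrial genes and leaving out each library.

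**Figure D2:**
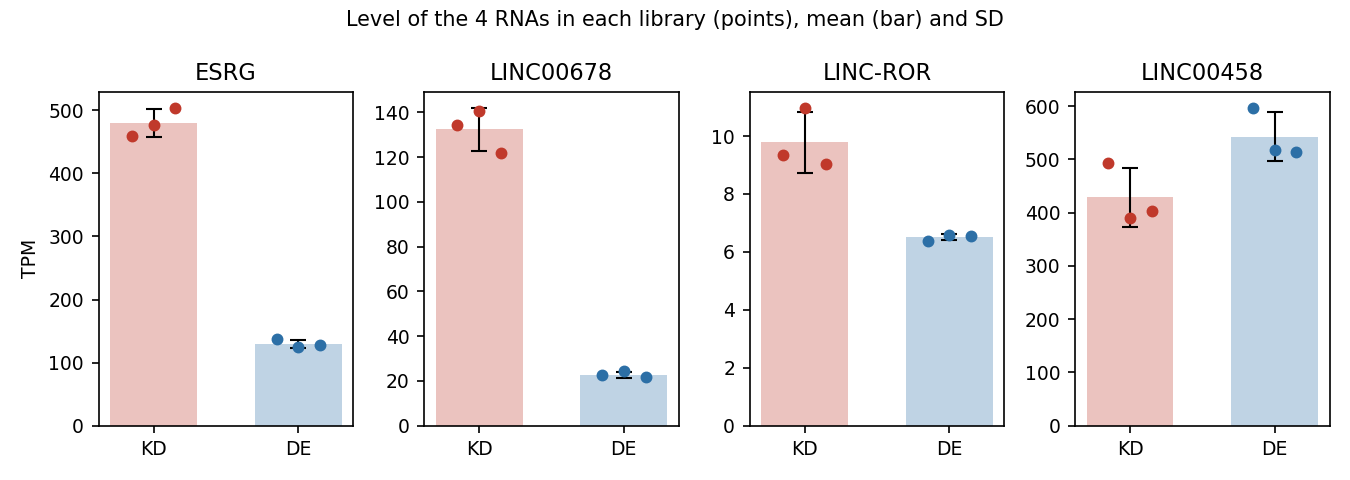
TPM of each RNA (vertical axis, own scale from 0 per panel) in the 3 KD libraries (left, red points) and the 3 DE libraries (right, blue points), with the mean as a bar and the SD as an error bar. KD points lie above DE points for ESRG, LINC00678 and LINC-ROR and below them for LINC00458, where 493 TPM in KD comes near 514 TPM in DE.

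The order of the 4 RNAs by TPM was not the same in the 2 groups. TPM is scaled by 1 length per gene, so an order between genes depends on the length used. The exons of all annotated transcripts cover 2444 bases in LINC00458, against 1060 bases in the transcript compared. In ESRG both are 3140 bases. In KD cells ESRG (460 to 504 TPM) and LINC00458 (390 to 493 TPM) overlapped, followed by LINC00678 and then LINC-ROR without overlap. In DE cells no neighbours in the order overlapped, and LINC00458 came first, then ESRG, LINC00678 and LINC-ROR. The ratio of ESRG to LINC00458 within a library was 0.933 to 1.25 in KD and 0.229 to 0.248 in DE.

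These RNAs were among the most abundant lncRNAs of the table. Among 2597 named lncRNA rows, ESRG ranked 1st or 2nd in KD libraries and 5th or 6th in DE libraries, and LINC00458 ranked between 1st and 3rd in KD libraries and 1st or 2nd in DE libraries. LINC00678 ranked 6th in every KD library and 38th to 48th in DE libraries, whereas LINC-ROR ranked 100th to 126th in KD libraries and 148th to 173rd in DE libraries. Together the 4 summed to 1051 ± 40.6 TPM in KD cells and 702 ± 52.6 TPM in DE cells. They made up 15.7% to 17.7% of the TPM of all named lncRNA rows in KD libraries and 10.1% to 12.1% in DE libraries.

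Of 9 activators of LTR7 tested, 3 rose in KD, POU5F1, SOX2 and NANOG. Of all genes tested, 1.77% were higher in KD. KLF4 and TFCP2L1, with limma adjusted p of 0.683 and 0.415, did not pass, and both lay near the filter of 1 TPM. KLF4 averaged 1.22 ± 0.424 TPM in KD cells and 0.822 ± 0.251 TPM in DE cells. TFCP2L1 averaged 1.36 ± 0.177 TPM in KD cells and 0.819 ± 0.247 TPM in DE cells, without overlap. POU5F1, a core pluripotency factor, averaged 1247 ± 105 TPM in KD cells and 682 ± 78.3 TPM in DE cells (log2 change 0.87, limma adjusted p = 0.0131). SOX2, its partner, averaged 146 ± 8.73 TPM in KD cells and 73.8 ± 6.71 TPM in DE cells (limma adjusted p = 0.00587), and NANOG averaged 70.5 ± 6.02 TPM in KD cells and 36.6 ± 5.06 TPM in DE cells (limma adjusted p = 0.0147). SOX2 passed without each library in turn, but POU5F1 and NANOG did not pass without KD replicate 1, KD replicate 2 or DE replicate 1. POU5F1 has near-identical pseudogenes, so its level is uncertain where reads are shared.

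Set against POU5F1 in the same library, the 4 RNAs fell into 2 kinds. ESRG was 38.7% ± 4.43 of POU5F1 in KD cells and 19.2% ± 2.37 in DE cells, and LINC00678 was 10.6% ± 0.334 in KD cells and 3.36% ± 0.224 in DE cells. Both were therefore higher in KD per unit of POU5F1 as well as in TPM. LINC-ROR was 0.783% ± 0.0212 of POU5F1 in KD cells and 0.963% ± 0.120 in DE cells, without overlap, so it was higher in KD in TPM and lower per unit of POU5F1. LINC00458 was 34.6% ± 5.81 of POU5F1 in KD cells and 80.1% ± 9.23 in DE cells. These ratios are descriptions with no test.

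**Figure D3:**
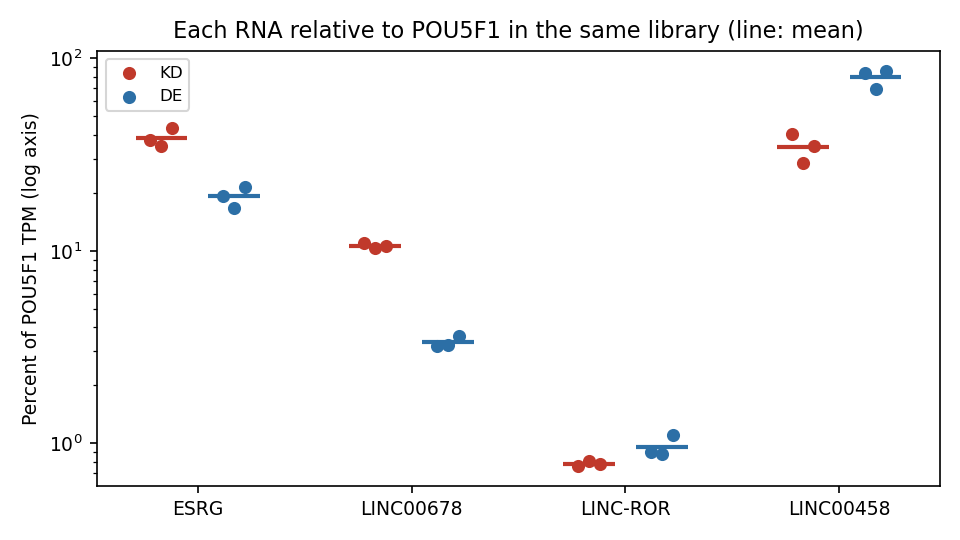
TPM of each RNA as a percent of POU5F1 TPM in the same library (vertical axis, logarithmic), for the 3 KD libraries (left of each pair, red) and the 3 DE libraries (right, blue), with the group mean as a line. KD lies above DE for ESRG and LINC00678 and below DE for LINC-ROR and LINC00458.

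Cell type markers were read from the same libraries, whether or not they differed between the groups. Of 10 stem cell markers, 6 were higher in KD at a limma adjusted p under 0.05 and none was lower (1 to 6 called when a library was left out), and the list summed to 4086 to 4634 TPM in KD libraries and 3146 to 3961 TPM in DE libraries. LIN28A and TDGF1, also stem cell markers, did not pass. Over all genes tested, 1.77% were higher and 1.5% lower in KD. Of 8 definitive endoderm markers, 4 were lower in KD (all 8 with the replicate number as a block, and 0 to 5 when a library was left out). The sums were 17855 to 19647 TPM in KD libraries and 24625 to 28237 TPM in DE libraries. CER1 made up most of them, with 16814.5 ± 773 TPM in KD cells and 23570 ± 1560 TPM in DE cells. The lowest of the list, HHEX, averaged 63.1 ± 12.1 TPM in KD cells and 104 ± 16.6 TPM in DE cells. Of 6 mesoderm markers, 4 were tested, 1 was higher and 1 lower (0 to 1 called when a library was left out), and the sums were 150 to 165 TPM in KD and 116 to 152 TPM in DE. KDR, the higher one, made up most of the sums, with 122 ± 3.53 TPM in KD cells and 83.9 ± 10.3 TPM in DE cells. HAND1, the lower one, averaged 0.746 ± 0.362 TPM in KD cells and 4.30 ± 0.552 TPM in DE cells. TBX6 and PDGFRA had log2 changes of -0.28 and -0.35 and did not pass. Of 5 neuroectoderm markers, none of 4 tested passed (2 had an unadjusted limma p under 0.05), with sums of 164 to 186 TPM in KD and 117 to 161 TPM in DE. NES made up most of these sums, with 143 ± 11.4 TPM in KD cells and 109 ± 20.4 TPM in DE cells. Fibroblast markers summed to 73.7 to 79.4 TPM in KD and 46.3 to 55.4 TPM in DE, with COL3A1, DCN and LUM under 1 TPM in all 6 libraries. Of the 3 tested, only THY1 passed, with 41.4 ± 3.61 TPM in KD cells and 13.0 ± 1.55 TPM in DE cells. COL1A1 and COL1A2 had log2 changes of -0.306 and 0.0988 and did not pass. The higher sums in KD thus came from THY1 and not from the list as a whole. Trophoblast and amnion markers summed to 8.23 to 9.02 TPM in KD and 3.40 to 5.18 TPM in DE, with 4 of 5 under 1 TPM in all libraries; the fifth, GATA2, rose in KD (7.59 ± 0.529 TPM in KD cells and 3.42 ± 0.675 TPM in DE cells, limma adjusted p = 0.0209), which was lost without any 1 KD library or DE replicate 1. The part of these markers' cells in the levels of the 4 RNAs was not tested.

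Of 18 LTR7 regulators tested, 3 rose in KD (POU5F1, NANOG and SOX2) and none fell. Over all genes tested, 1.77% were higher and 1.5% lower in KD. The median log2 change was 0.07 for the regulators, against -0.01 over all genes tested. The count of regulators called was 3 with the replicate block and 1 to 3 when a library was left out. Among the repressors, which with KRAB zinc finger proteins and chromatin modifiers silence retroviral repeats, 0 of 9 tested passed, and 0 had an unadjusted limma p under 0.05. TRIM28, the corepressor at the centre of this machinery, averaged 478 ± 35.8 TPM in KD cells and 457 ± 49.6 TPM in DE cells. CHAF1A, the large subunit of the chromatin assembly factor, averaged 121 ± 7.51 TPM in KD cells and 104 ± 9.44 TPM in DE cells and had the smallest p of the repressors (limma adjusted p = 0.400).

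Genes already described with an HERV-H repeat were read beside the 4 RNAs. Of 5 tested, HHLA1 and SCGB3A2 rose in KD and none fell, with a median log2 change of 0.51. Over all genes tested, 1.77% were higher and 1.5% lower in KD. HHLA1, named for its HERV-H LTR association, had 23.8, 27.3 and 25.7 TPM in KD libraries, against 11.2, 11.8 and 12.7 TPM in DE libraries (limma adjusted p = 0.00572). SCGB3A2, a secretoglobin, had 62.0, 66.6 and 62.0 TPM in KD libraries, against 28.3, 29.3 and 33.3 TPM in DE libraries (limma adjusted p = 0.00502). Both genes' groups stood clearly apart, and both passed without each library in turn. ABHD12B, an abhydrolase gene, averaged 17.8 ± 4.18 TPM in KD cells and 12.1 ± 2.06 TPM in DE cells (limma adjusted p = 0.249, and 0.0228 with the replicate block). CALB1, a calcium buffer protein, averaged 42.3 ± 4.53 TPM in KD cells and 41.4 ± 6.01 TPM in DE cells, and HHLA3 averaged 23.7 ± 1.54 TPM in KD cells and 20.5 ± 0.941 TPM in DE cells; neither passed. A transcript of HHLA1 aligned, at its bases 764 to 875, to bases 2 to 113 of ESRG with 95.5% identity. This match was therefore not at the start of that HHLA1 transcript.

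The start sequence was then used to find other genes like the 4. Of 41 genes with a GENCODE transcript whose first 300 bases aligned to the first 250 bases of 1 of the 4 RNAs (at least 100 bases and 80% identity), 16 had a name that could be matched, 11 were in the table and 8 were tested. Of these, 0 passed in limma, 4 had an unadjusted p under 0.05, and the median log2 change was 0.31; with the replicate block 3 rose, ABHD12B, RPL39L and MGC32805. RPL39L, a ribosomal protein paralog whose transcript start was 95.4% identical to ESRG over 241 bases, averaged 58.6 ± 7.63 TPM in KD cells and 43.6 ± 4.73 TPM in DE cells (limma adjusted p = 0.182, and 0.00945 with the block). MGC32805, an antisense RNA 96.1% identical to ESRG over 230 bases, averaged 4.09 ± 0.656 TPM in KD cells and 1.86 ± 0.485 TPM in DE cells (limma adjusted p = 0.0625, and 0.0389 with the block). LINC01356, a lincRNA 88.5% identical to LINC-ROR over 156 bases, was as abundant as ESRG in KD cells and did not follow it: it had 438, 451 and 587 TPM in KD libraries, against 439, 497 and 581 TPM in DE libraries, and the groups overlapped throughout. TFPI, ATXN3, IFIT2 and CALB1 had log2 changes of 0.48, 0.15, 0.21 and 0.04 and did not pass. In the protein-coding genes the shared start belongs to some transcripts only, while the table gives 1 value a gene.

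Other lncRNAs described in stem cells were read from the same fit. The list also held NEAT1 and MALAT1, which are described in most cells and were both tested. Of 12 tested, 2 rose in KD and none fell (4 rose with the replicate block), with a median log2 change of 0.15. Over all genes tested, 1.77% were higher in KD, and 5.88% with the replicate block. MIAT, first linked to myocardial infarction and later to pluripotency in mouse cells, averaged 3.29 ± 0.536 TPM in KD cells and 1.15 ± 0.300 TPM in DE cells (limma adjusted p = 0.0364). LINC01108 averaged 43.4 ± 6.93 TPM in KD cells and 23.6 ± 4.22 TPM in DE cells (limma adjusted p = 0.0452). Neither passed once any single library was left out. DANCR, an lncRNA that holds back differentiation in several cell types, averaged 77.2 ± 5.01 TPM in KD cells and 62.5 ± 4.55 TPM in DE cells (limma adjusted p = 0.193, and 0.0250 with the block). RMST, described as a SOX2 partner in neural cells, averaged 1.80 ± 0.311 TPM in KD cells and 0.910 ± 0.201 TPM in DE cells (limma adjusted p = 0.201).

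Of 5 endoderm lncRNAs tested, 4 fell in KD, with a median log2 change of -1.03. Over all genes tested, 1.5% were lower in KD. The 4 include GATA6-AS1, the knockdown target itself, so its fall says nothing about the list. The list was also chosen with earlier results of these data known. LINC00261, which lies beside FOXA2, averaged 18.6 ± 2.28 TPM in KD cells and 37.7 ± 3.91 TPM in DE cells (limma adjusted p = 0.0131), and no longer passed without KD replicate 2 or DE replicate 1. LINC01612 averaged 16.5 ± 5.10 TPM in KD cells and 40.5 ± 6.23 TPM in DE cells (limma adjusted p = 0.0347), lost without KD replicate 2, DE replicate 1 or DE replicate 2. LINC00479 averaged 3.18 ± 0.954 TPM in KD cells and 7.37 ± 0.391 TPM in DE cells (limma adjusted p = 0.0379), lost without any single library. EVX1-AS, an RNA of the mesendoderm gene EVX1, averaged 9.69 ± 0.442 TPM in KD cells and 6.45 ± 1.80 TPM in DE cells (limma adjusted p = 0.209, and 0.0493 with the block, higher in KD). With no library left out the list counted 4, and with 1 left out 0 to 3. LINC00458, the member that was lower in KD, had a log2 change of -0.34, smaller than any of the 4 falls.

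**Figure D4:**
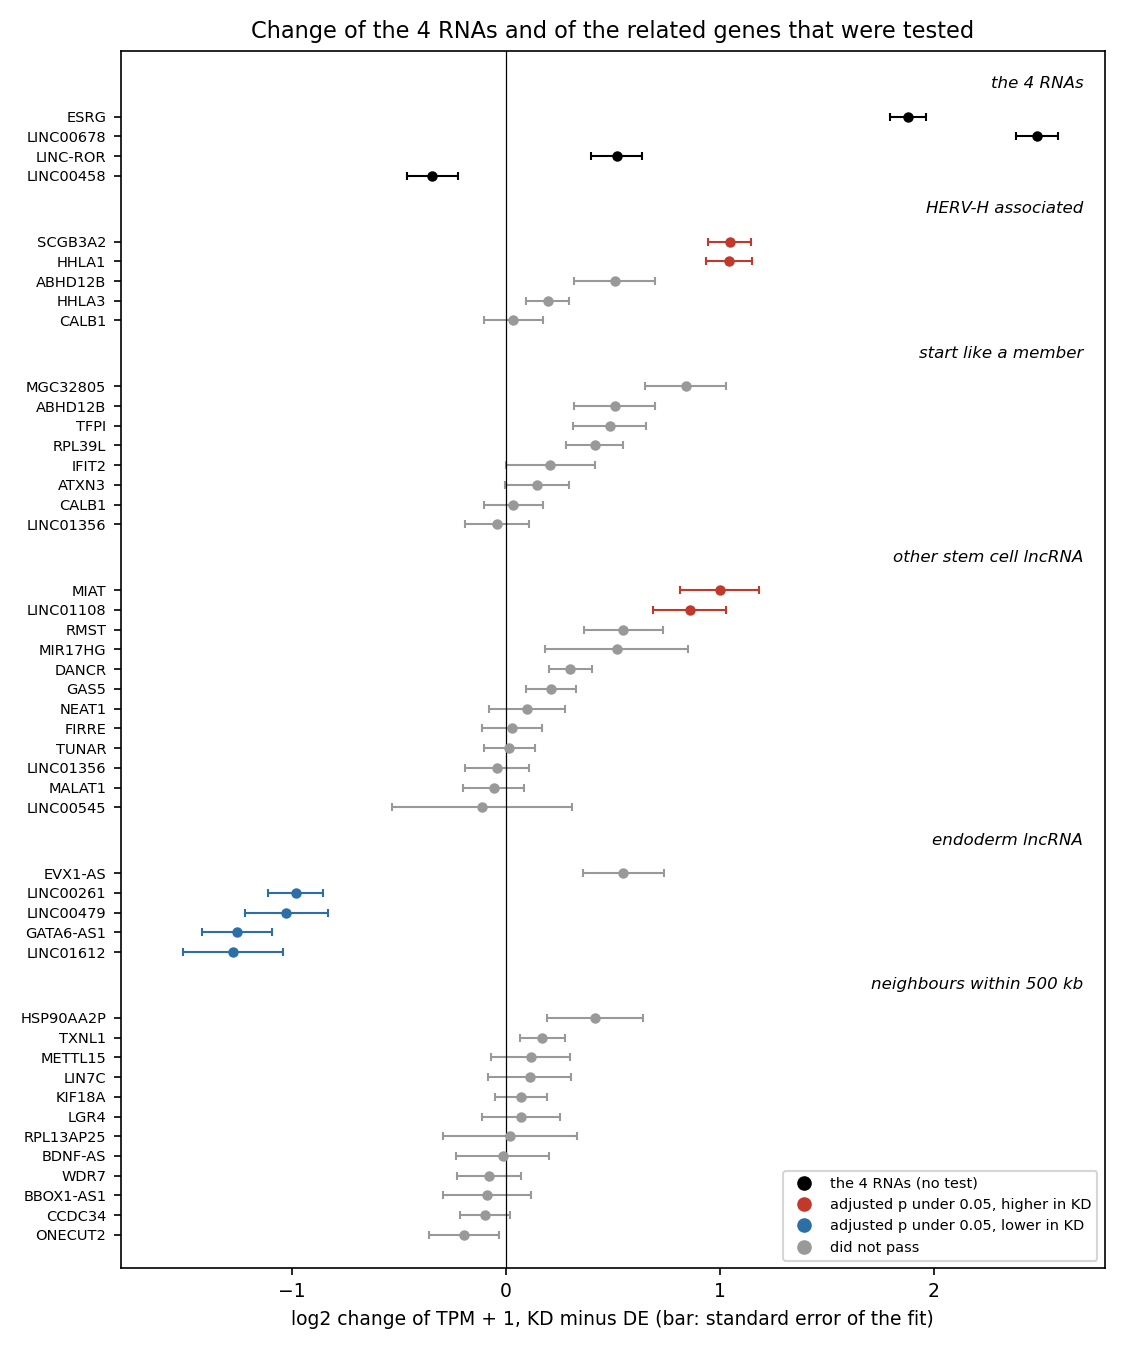
Log2 change of TPM + 1, KD minus DE (horizontal axis, bars the standard error of the fit), for the 4 RNAs (black, no test) and the tested genes of 5 lists; red marks genes higher and blue genes lower in KD at an adjusted p under 0.05, grey the rest. ESRG at 1.88 and LINC00678 at 2.48 lie to the right of every listed gene, while the neighbours run from -0.20 to 0.42.

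Among all 188 named lincRNA genes tested (the 4 left out), 12 passed, 7 higher and 5 lower, 6.38% against 3.27% of all genes; 32 passed with the replicate block, and 0 to 8 when a library was left out. Of those with at least 5 TPM in the higher group, 4 rose. LINC00428 averaged 32.7 ± 8.64 TPM in KD cells and 13.3 ± 3.45 TPM in DE cells, and LINC01194 averaged 31.3 ± 5.65 TPM in KD cells and 13.3 ± 2.75 TPM in DE cells, with limma adjusted p of 0.0399 and 0.0230. Each was lost without some libraries: LINC00428 held only without KD replicate 3, and LINC01194 was lost without KD replicate 1, KD replicate 2 or DE replicate 1. LINC01503 averaged 6.50 ± 0.655 TPM in KD cells and 3.34 ± 0.520 TPM in DE cells and was lost without any single library. The fallers by the same rule, beside LINC01612, LINC00479 and LINC00261, were MEG9 (1.99 ± 0.633 TPM in KD cells and 5.23 ± 0.275 TPM in DE cells) and DIO3OS (5.70 ± 1.06 TPM in KD cells and 11.1 ± 1.79 TPM in DE cells), both from the imprinted DLK1-DIO3 region; each was lost without most single libraries.

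Among genes around the 4, none passed the test. Of 12 tested genes that start within 500 kb of a member, 0 passed in limma and 0 had an unadjusted p under 0.05, and their log2 changes ran from -0.20 to 0.42. Around LINC00678, 8 genes were tested. They included LGR4, a receptor for R-spondins, with 34.0 ± 4.52 TPM in KD cells and 32.7 ± 7.18 TPM in DE cells, and LIN7C, a scaffold protein, with 18.9 ± 3.69 TPM in KD cells and 17.5 ± 3.73 TPM in DE cells. BDNF, the neurotrophin gene upstream of LINC00678, was under 1 TPM in all 6 libraries. The pseudogene HSP90AA2P had the highest log2 change of these, 0.42, with overlapping groups, and METTL15, KIF18A, CCDC34 and BBOX1-AS1 had 0.12, 0.07, -0.10 and -0.09. Near LINC-ROR, TXNL1 and WDR7 had log2 changes of 0.17 and -0.08, and ONECUT2, a transcription factor of liver and pancreas, averaged 2.19 ± 0.219 TPM in KD cells and 2.68 ± 0.471 TPM in DE cells. ESRG had no tested neighbour by this measure and LINC00458 had 1, the pseudogene RPL13AP25 (log2 change 0.02). ESRG lies opposite the calcium channel gene CACNA2D3, which averaged 1.75 ± 0.230 TPM in KD cells and 1.36 ± 0.135 TPM in DE cells (limma adjusted p = 0.664). LINC00678 lies opposite BDNF-AS, which averaged 1.30 ± 0.145 TPM in KD cells and 1.36 ± 0.573 TPM in DE cells. These overlaps are of whole gene spans, and whether the exons of a pair overlap was not looked up. No label says whether the libraries kept strand, so reads from any overlapping exons could not be told apart. Both partners were far below their member.

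Reads could also be shared among HERV-H copies. Of the 50-base windows of each RNA, 10.2% in ESRG, 3.84% in LINC00678, 0.840% in LINC-ROR and 4.14% in LINC00458 occur unchanged in transcripts of other genes. Copies outside annotated transcripts were not searched, and no label says how reads with several matches were counted, so the effect of shared reads on these TPM values was not tested.

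Partners described for the 4 RNAs were read from the same fit. Of 11 tested, 3 rose in KD (POU5F1, SOX2 and NANOG) and none fell, with a median log2 change of 0.05. Only 1 of the partners passed without KD replicate 1, KD replicate 2 or DE replicate 1. Over all genes tested, 1.77% were higher and 1.5% lower in KD. AGO2, the Argonaute protein that carries miRNAs, averaged 48.8 ± 5.82 TPM in KD cells and 43.2 ± 8.31 TPM in DE cells. PTBP1, an RNA-binding splicing regulator described with LINC-ROR, averaged 379 ± 26.5 TPM in KD cells and 371 ± 33.3 TPM in DE cells. MCM2, a replication helicase subunit described with ESRG, averaged 110 ± 11.5 TPM in KD cells and 111 ± 13.0 TPM in DE cells, and SMAD3, an effector of Activin signalling, averaged 23.7 ± 0.826 TPM in KD cells and 23.9 ± 1.40 TPM in DE cells. Of these, AGO2, PTBP1, MCM2 and SMAD3 did not pass.

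The described sponge target of LINC-ROR was looked up in its sequence. The mature miRNA, from RefSeq on GRCh38.p14, is shown with its seed, bases 2 to 8, in capitals.
hsa-miR-145-5p: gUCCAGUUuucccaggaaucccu
The 7 letters complementary to that seed, AACTGGA, were searched on the sense strand of every annotated transcript. They were not found in any of the 8 LINC-ROR transcripts, nor in LINC00678 or LINC00458. The 1 annotated ESRG transcript held them, with the first match at base 1717 inside the long first exon. The ESRG match with its surroundings, capitals marking the 7 letters, is as follows.
ESRG match: aaactccaaaAACTGGAatctggccct
Of 16066 lncRNA genes, 13.1% held the match in at least 1 transcript. The row of the precursor gene MIR145 was listed at 0 in all 6 libraries, and the mature miRNA was not measured. No match says only that these letters are not in these transcripts.

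Across the 6 libraries the 4 RNAs were compared with each other and with every tested gene, by Pearson's r of log2(TPM + 1), as a description of 6 points that fall into the 2 groups. ESRG, LINC00678 and LINC-ROR had r of 0.949 to 0.994 among themselves and -0.803 to -0.852 with LINC00458, which follows from the direction of the groups. The genes most like ESRG were VSNL1, DDAH1, ATCAY, KIF5A and TIMP4, with r of 0.996 to 1.00. VSNL1, a neuronal calcium sensor, averaged 6.22 ± 0.412 TPM in KD cells and 0.895 ± 0.0773 TPM in DE cells, the nearest match to ESRG over all 6 libraries. Those most like LINC00678 were RBPMS, TBX5, ATCAY, SYT6 and PGBD5 (r 0.997 to 0.999), of which SYT6, a synaptotagmin, averaged 16.6 ± 1.73 TPM in KD cells and 3.41 ± 0.205 TPM in DE cells. Those most like LINC-ROR were FFAR4, CYFIP2, C10orf2, LINC00698 and STX18-AS1 (r 0.992 to 0.994). Those most like LINC00458 were CST1, GOLGA8A, HTR1E, SPRYD3 and ST3GAL5 (r 0.981 to 0.989), and CST1, a cystatin, averaged 21.5 ± 5.49 TPM in KD cells and 38.5 ± 8.23 TPM in DE cells. An r over 0.95 was reached by 296 tested genes with ESRG, 380 with LINC00678, 247 with LINC-ROR and 43 with LINC00458.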

How the data were processed

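Total RNA of 6 libraries, 3 KD and 3 DE, grouped by their titles, was used. The values are TPM as the authors deposited them (58830 rows, each column summing to 1000000). Per the submitters' processing notes the build was GRCh38 and the tools were featureCounts, DESeq2 and HISAT2 2.1.0, with no roles given. For filters and annotation release the sources used here give nothing.

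Genes of at least 1 TPM in at least 3 libraries were tested on log2(TPM + 1) with limma 3.58.1 (R 4.3.3), trended, 2-sided, with Benjamini-Hochberg adjustment and a threshold of 0.05; the fit was tested on simulated data. Sequences and gene positions came from GENCODE 29 (GRCh38) and were aligned with BLAST 2.17.0; repeats were not annotated. Clone-named genes were left out of annotation matches. Reads were estimated from TPM times exon length, with 88.3% to 89.0% of low values within 0.02 of a whole number. A start comparison replaced the planned promoter comparison after the data were seen.

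The 4 RNAs and all lists were chosen with earlier results of these data known. Genes were named by rule: the 4 RNAs, targets and core factors, every tested gene of lists of up to 8 or the 4 of smallest p in longer ones, lincRNA extremes and the 5 genes most like each RNA. The cell type marker lists did not follow this rule and were given as counts and sums with some genes named. Others given were picked after their values were seen. Same-numbered KD and DE libraries deviated together (r 0.108, 0.144 and 0.347 over 17711 genes, each over 0.1), so a replicate block was also run; KD replicate 1 with DE replicate 2 had r 0.121 and the other unmatched pairs 0.0769 or less, so the numbers mainly set replicate 3 apart. Certain sequences and 1 partner gene are not reported here.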

Additional observations from a re-analysis of the deposited data

How the results depend on the processing

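The log2 changes of ESRG, LINC00678, LINC-ROR and LINC00458 kept their direction and moved by less than the replicate SD in 12 alternatives each. Leaving out 1 library at a time gave 1.84 to 1.92 for ESRG, 2.44 to 2.54 for LINC00678, 0.44 to 0.57 for LINC-ROR and -0.45 to -0.27 for LINC00458. Counts of called genes moved more, and the cause was not tested. Genes called, 579, became 239 with no filter, 1735 with quantile normalization, 1753 with median ratios, 1682 without mitochondrial genes, 2215 with the replicate block and 1212 without replicate 3 of both groups (an alternative added after seeing the data), with 87 to 610 leaving out 1 library: 170 without KD replicate 1, 87 without KD replicate 2, 252 without KD replicate 3, 99 without DE replicate 1 and 212 without DE replicate 2. Called lincRNA genes, 12, became 1, 27, 27, 26, 32 and 19 in the same order, with 0 to 8 leaving out 1 library. Of the other stem cell lncRNAs, 2 became 0 with no filter, 1 with a mean of at least 5 TPM, 1 without the trend and 4 with the replicate block, and 0 without any single library. The 4 endoderm lncRNAs became 2 with no filter and 0 to 3 leaving out 1 library, and the 3 partners became 1 to 3 leaving out 1 library. Start-like genes called, 0, became 2 with quantile normalization, median ratios or no mitochondrial genes, 3 with the block, 1 without replicate 3 of both groups and 0 leaving out 1 library. Leaving out 1 library, 2 HERV-H associated genes, 1 to 3 LTR7 regulators and 0 neighbours were called. With the replicate block the HERV-H associated genes called went to 3 and the endoderm lncRNAs to 5, while the LTR7 regulators, partners and neighbours stayed at 3, 3 and 0. The planned comparison of promoters was not run. Depth limits LINC-ROR, with 164 to 284 estimated reads a library, and LINC00678 in DE libraries, with 162 to 190, more than the other RNAs.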
